A study of Mus musculus with 12 samples.

Results

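The 9 genes described here, Prdm1, Prdm14, Tfap2c, Nanos3, Dnd1, Dppa3, Dazl, Ddx4 and Kit, are regulators and markers of primordial germ cells, the embryonic founders of sperm and eggs. They were taken as the genes of that list that have a probe set annotated to the gene alone, with the brightest probe set standing for a gene. All 9 had such a probe set, out of 19938 genes on the arrays, and all 9 passed the filter on low signal that left 15950 genes for testing. The rule uses the genes' known roles and the brightness of their probe sets, and no comparison between groups. The list itself was chosen with earlier results of these data known.

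In the mouse, primordial germ cells arise from the epiblast in response to bone morphogenetic protein (BMP) signals. Prdm1, Prdm14 and Tfap2c encode the transcription factors that install the germ cell programme, repress the somatic one and restore pluripotency genes. Nanos3 and Dnd1 encode RNA-binding proteins that keep the new germ cells alive, Kit encodes the receptor tyrosine kinase through which they receive survival and migration signals, and Dppa3 (Stella) is an early germ cell marker that is also active in naive ES cells. Dazl and Ddx4 (mouse vasa homologue) encode RNA regulators switched on later, around arrival in the gonad, and in somatic cells their CpG-rich promoters are kept silent by DNA methylation and by repressor complexes. Embryoid bodies, the differentiating aggregates of ES cells used here, can form a small number of germ cell-like cells. In such a mixed sample, fewer cells of a type and less RNA per cell cannot be told apart.

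The 12 arrays come from embryoid bodies of A2lox ES cells (129P2/OlaHsd background) that carry a doxycycline (dox) inducible transgene. Knockdown-line cells answer dox with microRNAs that target the transcripts of Geminin (gene Gmnn), and there were 3 arrays with dox and 3 without, all of day 4. In the overexpression line, dox turns on Geminin, and there were 2 arrays with dox and 2 without on day 5 (replicates 1 and 2), and 1 with and 1 without on day 4 (replicate 3). Dox was at 0.5 µg/ml, from day 0 in the knockdown line and from day 3 in the overexpression line, and the controls carried the same transgenes without dox. The ES cells had been kept on irradiated fibroblast feeders that were removed before aggregation, and the labels name 1 ES cell line of each kind. Whether replicates were separate cultures is not stated in the labels, so a p-value here covers the spread between samples that may be technical copies. Geminin binds the replication licensing factor Cdt1 and chromatin regulators, and the study asked how its level affects the choice of embryonic cell fates.

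Levels are log2(intensity + 1) after quantile normalization, and a difference is dox minus control unless another is named. The targeted gene ran as labelled: Gmnn stood at 9.66, 9.74 and 9.63 in knockdown dox arrays, against 10.33, 10.14 and 10.05 in their controls. The overexpression line had 11.38 and 10.83 on day 5 and 11.04 on day 4 with dox, against 10.29 and 10.15 on day 5 and 10.35 on day 4 without. The arrays do not overlap between dox and control in either line. The differences of -0.50 ± 0.14 and 0.82 ± 0.14 (log2 ± SE) nevertheless had limma adjusted p-values of 0.965 and 0.922. Over all 15950 genes, 1 gene passed an adjusted p under 0.05 in each line, which is 0.00627% of them. The contrast of the lines' dox effects called 0 genes by limma, with 340 (2.13%) at an unadjusted p under 0.05.

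Signal near the level of background limits what can be read from a gene. As a guide, the 1194 olfactory and vomeronasal receptor genes, which embryoid bodies are not expected to use, had a median level of 5.67 and a 95th percentile of 7.06. Averaged over the 12 arrays, 7 members lay above that percentile, and 5 (Prdm1, Tfap2c, Dnd1, Ddx4 and Kit) lay above the 99th percentile of 7.55. Prdm14, at a mean of 6.88, and Dazl, at 7.04, lay below the 95th percentile, brighter than 92.4% and 94.7% of the receptor genes. For those members, and for Dppa3 and Nanos3 just above the guide, a low level cannot be told from background, and a fold change on this scale understates the change of a dim gene. Probe sets differ in brightness, so levels are compared between samples and not between genes.

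None of the 9 regulators passed the test for a change with dox in either line. The differences ran from -0.22 (Prdm14) to 0.20 (Ddx4) in the knockdown line, with adjusted p-values of 0.965 to 0.992. Overexpression-line differences ran from -0.19 (Prdm1) to 0.15 (Tfap2c), with an adjusted p of 1.0 for each. No member reached an unadjusted p under 0.05 in either line, against 3.76% of all genes tested in the knockdown line and 0.934% in the overexpression line. In the knockdown line no member had its 3 dox arrays all above or all below the 3 controls, where 4.97% and 3.25% of all genes did. The median size of the members' differences, without their sign, was 0.13 in the knockdown line and 0.08 in the overexpression line, against 0.10 and 0.06 over all genes tested. Exact two-sided permutation tests over the arrays gave p-values of 0.2 to 0.8 in the knockdown line (smallest possible 0.1) and of 0.167 to 1.0 within day in the overexpression line (smallest possible 0.167). Neither these tests nor the limma fit takes account of the replicate number.

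**Figure D1:**
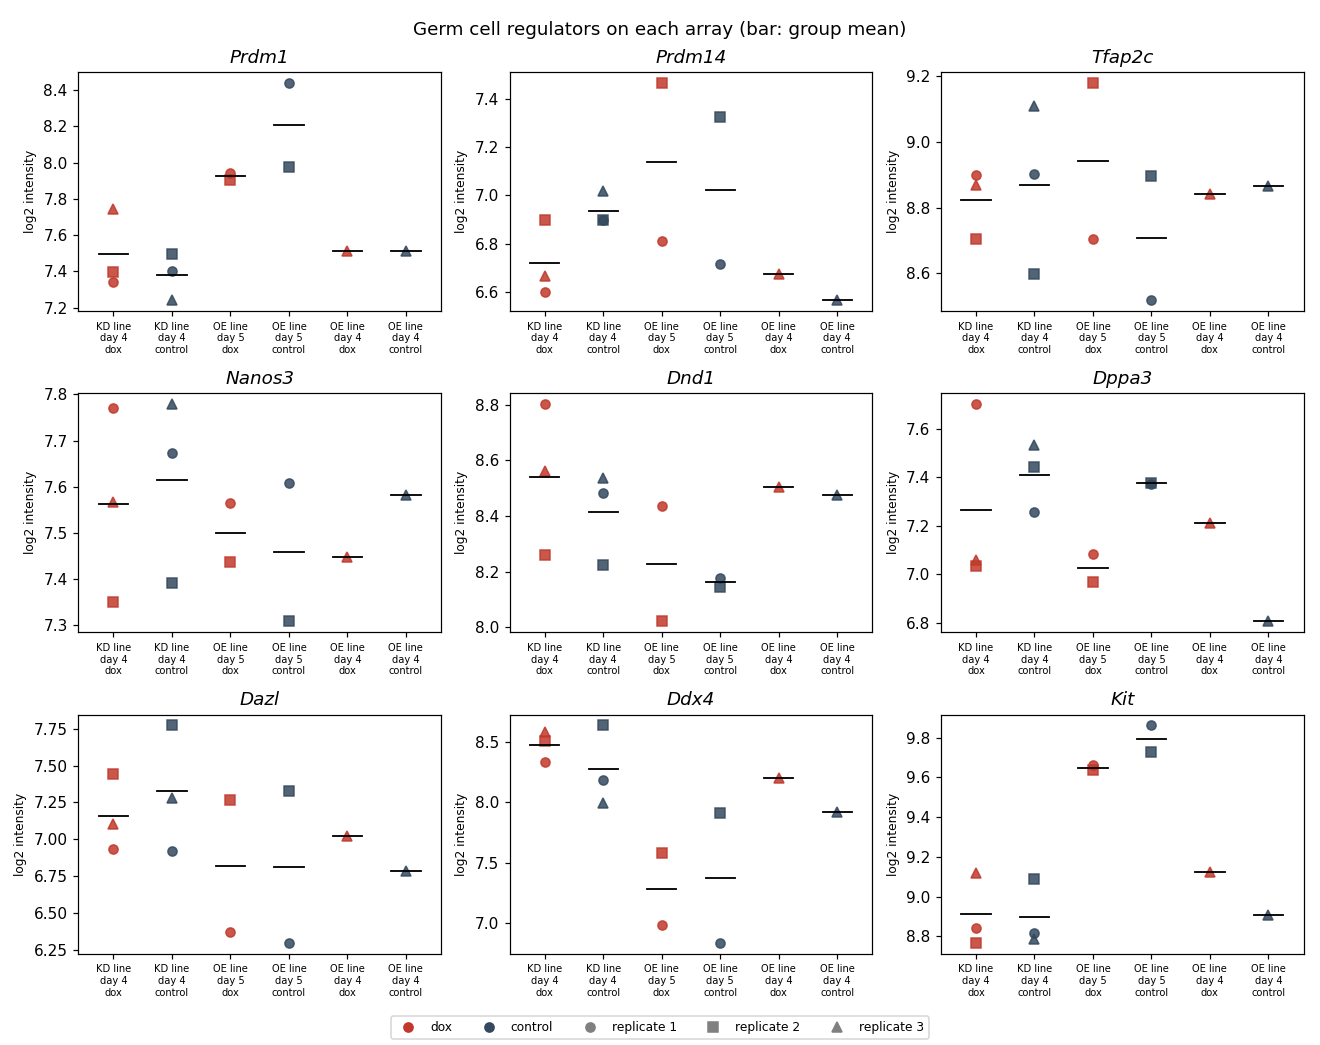
Level of each of the 9 germ cell regulators (log2 intensity after quantile normalization, vertical axis, scaled to each gene) in the 12 arrays, grouped by line (KD, knockdown; OE, overexpression), day and dox. Points are arrays, with dox in red, control in dark blue and the replicate number as shape, and bars are group means; dox and control points interleave in the knockdown line, and Kit and Prdm1 are highest and Ddx4 lowest in the 4 day 5 arrays.

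Among the transcription factors, Prdm1 (Blimp1, the repressor of the somatic programme; probe set 10368970) stood at 7.34, 7.39 and 7.75 in knockdown dox arrays, against 7.41, 7.50 and 7.24 in their controls. The groups overlap, and the highest dox array and the lowest control are both replicate 3. Prdm1 in the overexpression line stood at 7.95 and 7.91 on day 5 and at 7.51 on day 4 with dox, against 8.44 and 7.98 on day 5 and 7.51 on day 4 without. The difference was -0.19 ± 0.15 in that line (95% interval -0.52 to 0.14) and 0.11 ± 0.15 in the knockdown line (-0.21 to 0.44). All 3 pairs of the overexpression line were lower with dox, by 0.50, 0.07 and under 0.01, as 10.5% of all genes tested were. The replicate 1 pair of day 5 carries most of that difference.

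Prdm14, a transcription factor needed both for germ cell specification and for naive pluripotency (probe set 10353127), stood at 6.60, 6.90 and 6.67 in knockdown dox arrays, against 6.90, 6.90 and 7.02 in their controls. Its second pair is level, and the groups touch there. With dox in the overexpression line it stood at 6.81 and 7.47 on day 5 and at 6.67 on day 4, against 6.72 and 7.33 on day 5 and 6.57 on day 4 without. Prdm14 was below its control in the pairs of the knockdown line, by 0.30, under 0.01 and 0.35, and above it in the pairs of the overexpression line, by 0.09, 0.14 and 0.11. The difference between the lines' dox effects was -0.33 ± 0.26. It had an unadjusted p of 0.232 and an adjusted p of 1.0 in limma, so it is not called. No member's was, at either threshold, in that fit. The fit has no replicate block, so its SE holds the spread between replicates besides that of the dox effect. With a replicate block, 0 members were called for this difference at an adjusted p under 0.05. At an unadjusted p under 0.05 that fit had 1384 of 15950 genes, against 340 without the block. The unadjusted p of Prdm14 with the block is not given here, so the 0.232 speaks only for the fit without it. Prdm14 ran 1 way in all 3 pairs of each line, as did Dnd1 in the knockdown line and Prdm1 in the overexpression line, against 31.7% of all genes in the knockdown line and 27.0% in the overexpression line. Among the day 5 arrays the replicates lie further apart than dox and control, since both replicate 2 arrays exceed both replicate 1 arrays.

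Tfap2c (AP-2 gamma, which acts downstream of Prdm1 and is also expressed in trophoblast and surface ectoderm; probe set 10478997) was at 8.90, 8.70 and 8.87 in knockdown dox arrays, against 8.90, 8.60 and 9.11 in controls. The overexpression line had 8.71 and 9.18 on day 5 and 8.84 on day 4 with dox, against 8.52 and 8.90 on day 5 and 8.87 on day 4 without. Dox and control ranges overlap in both lines. The differences of -0.05 ± 0.17 and 0.15 ± 0.17 have 95% intervals of -0.42 to 0.32 and of -0.22 to 0.52. A doubling or halving of its signal, a log2 change of 1 in size, lies outside both intervals.

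The RNA-binding survival factors differed little between dox and control. Nanos3 (probe set 10580131), whose loss empties the mouse gonad of germ cells, was at 7.77, 7.35 and 7.57 in knockdown dox arrays, against 7.67, 7.39 and 7.78 in controls. Overexpression arrays had 7.56 and 7.44 on day 5 and 7.45 on day 4 with dox, against 7.61 and 7.31 on day 5 and 7.58 on day 4 without. Its 6 pairs scatter around 0, and the 95% intervals of its differences are -0.36 to 0.26 and -0.33 to 0.29. Dnd1 (probe set 10458391), which protects germ cell transcripts from microRNAs, was at 8.80, 8.26 and 8.56 in knockdown dox arrays, against 8.48, 8.22 and 8.54 in controls. With dox in the overexpression line it was at 8.44 and 8.02 on day 5 and 8.51 on day 4, against 8.18 and 8.14 on day 5 and 8.48 on day 4 without. Dnd1 was higher with dox in all 3 knockdown pairs, as 19.5% of all genes tested were, but by 0.03 in 2 of them, and the difference of 0.13 ± 0.15 had an adjusted p of 0.965.

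Dppa3 (probe set 10541515) had pairs of both signs in each line. It stood at 7.70, 7.04 and 7.06 in knockdown dox arrays, against 7.26, 7.44 and 7.53 in controls, so the dox group holds both the highest and the lowest arrays. The overexpression line had 7.08 and 6.97 on day 5 and 7.21 on day 4 with dox, against 7.37 and 7.38 on day 5 and 6.80 on day 4 without. Pair differences were -0.41 and -0.47 in 2 knockdown pairs and 0.45 in the other. Likewise both day 5 pairs of the overexpression line were lower with dox, by 0.29 and 0.41, and its day 4 pair higher by 0.41. A second, dimmer probe set (10604135, mean 6.67) gave differences of 0.07 and 0.04, opposite in sign to the -0.14 ± 0.19 and -0.10 ± 0.19 of the brighter one.

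Kit (probe set 10522530), which blood and mast cell progenitors also express, was at 8.84, 8.77 and 9.12 in knockdown dox arrays, against 8.82, 9.09 and 8.79 in controls. With dox in the overexpression line it was at 9.66 and 9.63 on day 5 and 9.12 on day 4, against 9.86 and 9.73 on day 5 and 8.91 on day 4 without. Day separates these arrays and dox does not. Kit had the narrowest 95% intervals of the 9 members: -0.27 to 0.30 around a knockdown difference of 0.01 ± 0.13, and -0.31 to 0.26 around an overexpression difference of -0.02 ± 0.13.

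**Figure D2:**
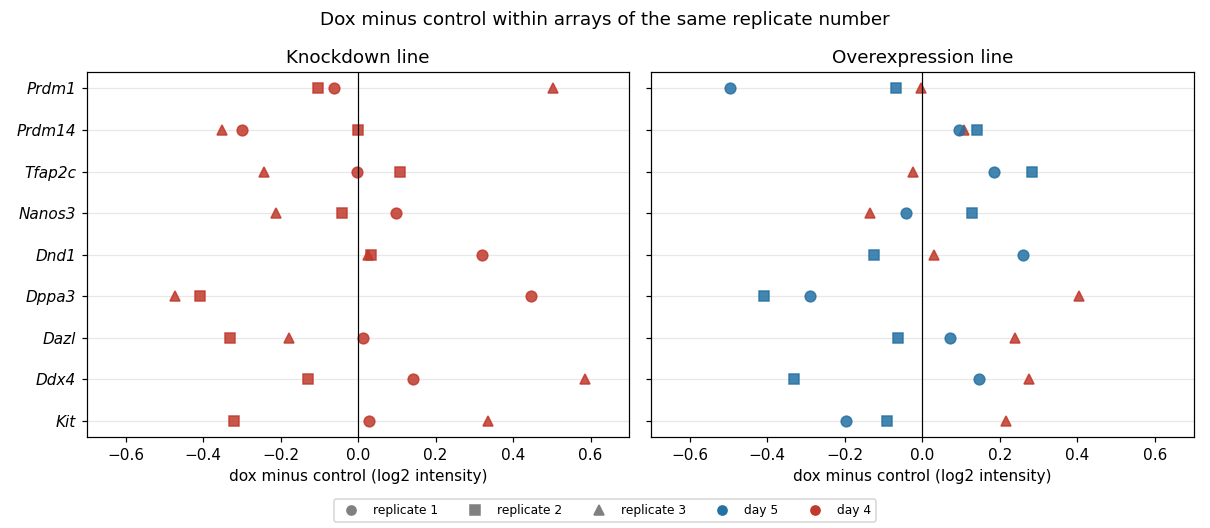
Dox minus control (log2 intensity, horizontal axis) between arrays of the same replicate number for the 9 regulators, knockdown line left and overexpression line right; marker shape gives the replicate number and colour the day. Most sets of 3 pairs straddle 0, and the widest set within a line (Dppa3, knockdown) reaches from -0.47 to 0.45.

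The late pair, Dazl and Ddx4, varied widely between arrays of the same group. Dazl (probe set 10451721), an RNA-binding protein that licenses germ cells for gamete development, was at 6.93, 7.44 and 7.10 in knockdown dox arrays, against 6.92, 7.77 and 7.28 in controls. In the overexpression line it was at 6.37 and 7.27 on day 5 and 7.02 on day 4 with dox, against 6.30 and 7.33 on day 5 and 6.78 on day 4 without. Its order follows the replicate number: replicate 1 exceeded replicate 2 in none of the 4 groups that hold both. The gap, replicate 1 minus replicate 2, was -0.51 in knockdown dox arrays, -0.85 in knockdown controls, -0.90 in day 5 dox arrays and -1.03 in day 5 controls.

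Ddx4 (probe set 10412155), a DEAD-box RNA helicase of germ granules, stood at 8.33, 8.50 and 8.58 in knockdown dox arrays, against 8.19, 8.63 and 7.99 in controls. With dox in the overexpression line it stood at 6.99 and 7.58 on day 5 and 8.20 on day 4, against 6.84 and 7.91 on day 5 and 7.92 on day 4 without. All 4 day 5 arrays lie below all 8 day 4 arrays of both lines, which 3.71% of all genes tested did. The separation is narrow, at 7.913 in day 5 control replicate 2 against 7.922 in the day 4 control of the overexpression line. The day 5 replicate 1 arrays, at 6.99 and 6.84, lie below 7.06, the receptor genes' 95th percentile, so those levels cannot be told from background. Within the groups, replicate 1 minus replicate 2 was -0.18, -0.45, -0.60 and -1.08, in the order given for Dazl. The dox differences were 0.20 ± 0.27 and 0.03 ± 0.27 for Ddx4 and -0.16 ± 0.31 and 0.08 ± 0.31 for Dazl in the knockdown and the overexpression line. Their 95% intervals are the widest here, up to -0.86 to 0.53 for Dazl and -0.39 to 0.79 for Ddx4 in the knockdown line. Dazl lies near background, so its interval speaks of the probe set's signal and sets no limit on the change of its transcript.

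The promoters of this late pair are shown because both genes are textbook cases of germline genes held silent through CpG-rich promoters. They are 300 bases long, from RefSeq (GRCm38.p6), 5′ to 3′ on the gene's strand, around the transcription start; that of Dazl lies at chr17:50293571-50293870 and that of Ddx4 at chr13:112652261-112652560, both on the minus strand. Capitals mark CACGTG, the palindromic E-box bound by Max with Mga or Myc, and GCGGGA or its complement TCCCGC, the core of the E2F site.
Dazl: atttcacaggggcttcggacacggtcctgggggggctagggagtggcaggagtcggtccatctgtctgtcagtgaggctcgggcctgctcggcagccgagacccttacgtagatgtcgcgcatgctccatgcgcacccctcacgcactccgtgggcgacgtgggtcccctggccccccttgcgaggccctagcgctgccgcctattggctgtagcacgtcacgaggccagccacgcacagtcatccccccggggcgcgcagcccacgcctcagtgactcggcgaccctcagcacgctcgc
Ddx4: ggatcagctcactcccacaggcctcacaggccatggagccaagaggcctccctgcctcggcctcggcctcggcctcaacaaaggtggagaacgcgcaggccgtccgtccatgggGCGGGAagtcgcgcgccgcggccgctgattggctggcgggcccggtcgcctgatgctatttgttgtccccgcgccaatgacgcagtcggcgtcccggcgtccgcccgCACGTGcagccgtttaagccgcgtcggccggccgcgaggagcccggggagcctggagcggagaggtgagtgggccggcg
The Dazl promoter holds 28 CpG dinucleotides and the Ddx4 promoter 38, against a median of 7 over 32851 RefSeq promoters of this length, of which 85.8% and 95% hold fewer. The Ddx4 window has 1 CACGTG and 1 GCGGGA, the Kit window has 2 GCGGGA (either strand) and no CACGTG, and the windows of Dazl, Prdm1 and Nanos3 have neither. Over all these promoters 7.15% hold CACGTG and 20% hold GCGGGA on either strand. Among the other members, Prdm1 and Kit had 20 CpG dinucleotides each and Nanos3 had 3. The promoters of Prdm14, Tfap2c, Dnd1 and Dppa3 are not reported here. These letters are a description of the sequence, and the arrays carry no measurement of methylation or binding there.

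Day 5 against day 4 in the overexpression line gave the largest differences among the members, none of which passed an adjusted p under 0.05. The day 4 arrays are also replicate 3, so day and replicate cannot be told apart. Kit was higher on day 5 by 0.70 ± 0.14 (1.63-fold; 95% interval 0.40 to 1.00), with an unadjusted p of 0.000343 and an adjusted p of 0.0564 in limma, and all 4 day 5 arrays exceeded all 8 day 4 arrays of both lines. Prdm1 shared that arrangement, which 4.93% of all genes tested had, with a difference of 0.56 ± 0.16 (0.21 to 0.90) and an adjusted p of 0.139. For Prdm14 the difference was 0.46 ± 0.20 (adjusted p = 0.32). Ddx4 went the other way, at -0.73 ± 0.28 (-1.36 to -0.10, limma adjusted p = 0.277), and its day 5 replicate 1 arrays lie within the range of background.

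Of the 9 members, 4 had an unadjusted p under 0.05 by day, against 14.2% of all genes tested, and the adjusted threshold called 0.558% of all genes. The other 5 lay between -0.29 (Dnd1, adjusted p = 0.45) and 0.19 (Dppa3, adjusted p = 0.749). All 4 day 5 arrays lay above both day 4 arrays of the line for Prdm1, Prdm14 and Kit, as for 15.4% of all genes, and below both for Dnd1 and Ddx4, as for 15.1%. The median size of the day difference was 0.29 over the members and 0.13 over all genes. The Prdm14 difference depends on the day 5 pair: it was 0.78 (adjusted p = 0.0246) without both arrays of replicate 1 and 0.14 (adjusted p = 0.643) without both arrays of replicate 2. For Ddx4 the same omissions gave -0.312 and -1.149. Leaving out single arrays moved the adjusted p of Kit between 0.0405 (without knockdown control replicate 2) and 0.737 (without the day 4 control of the overexpression line).

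**Figure D3:**
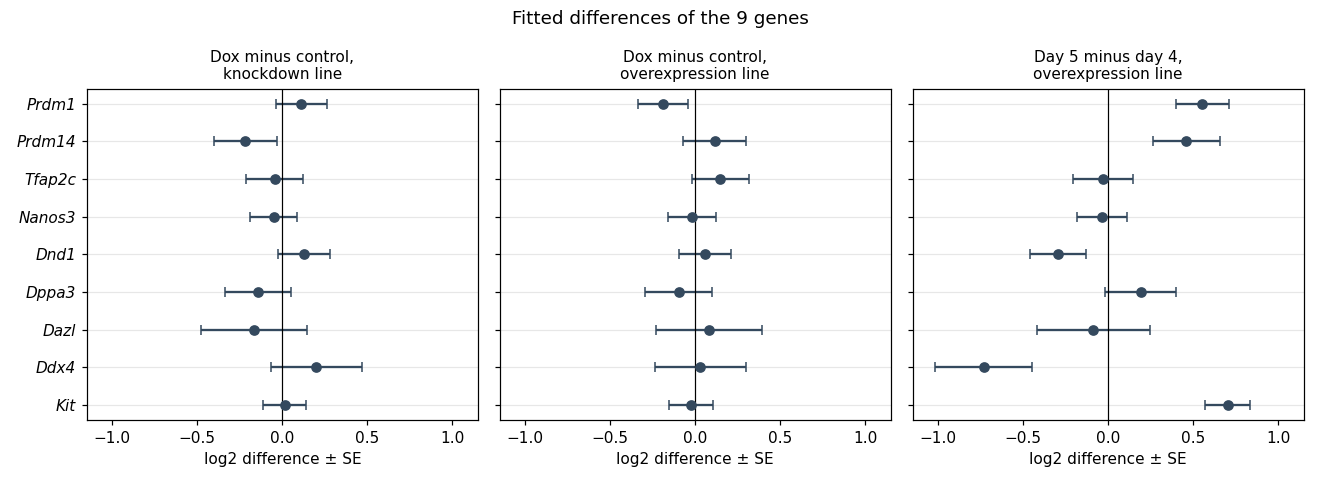
Fitted log2 differences ± SE (horizontal axis) from the limma model for the 9 regulators, with panels for the dox effect in the knockdown line, the dox effect in the overexpression line, and day 5 minus day 4 in the overexpression line. The dox differences lie between -0.22 and 0.20, whereas the day differences reach 0.70 (Kit) and -0.73 (Ddx4).

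Kit and Prdm1 are also used by other lineages of the embryo, so markers of those lineages were read in the same arrays. Over all 15950 genes tested, 1199 were higher and 1065 lower on day 5 at an unadjusted p under 0.05 in limma. Of 20 blood and endothelial genes, 17 were tested and 1 was higher and 0 lower on day 5 at an unadjusted p under 0.05, with a median day difference of -0.05. Their summed signal was 4981 to 7840 in the 4 day 5 arrays, against 5136 and 5358 on day 4 of that line, and Hbb-bh1, Nfe2 and Mpo lay below the filter. Of 20 endoderm genes, 19 were tested and 6 were higher and 0 lower on day 5, with a median of 0.35. Their summed signal was 10678 to 12403 on day 5, against 7816 and 7692 on day 4, with Apob below the filter. Endoderm signal and Prdm1 thus stood higher on the same day in this line, with 0 of those genes called. In contrast, 1 of the 3 replicates of the knockdown line reached a summed endoderm signal of 16676 with dox and 18706 without, at Prdm1 levels of 7.39 and 7.50. The part of other lineages in the day difference was not tested.

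Tfap2c, which trophoblast and surface ectoderm share, was level by day while some of their markers were higher. Of 15 such genes tested (Krt5 lay below the filter), 5 were higher and 0 lower on day 5 at an unadjusted p under 0.05 (median 0.21; summed signal 12783 to 15118 on day 5, against 9568 and 8578 on day 4), whereas Tfap2c differed by -0.03 ± 0.18. Fibroblast genes, read as a sign of leftover feeders, gave 3 higher and 0 lower of 12 tested (median 0.21; summed signal 9997 to 10822 on day 5, against 9102 and 9081 on day 4), with Postn, Lum and Fap below the filter. By day, 1199 of all 15950 genes tested were higher and 1065 lower at an unadjusted p under 0.05. With dox, 0 genes of these 4 marker lists were called in either line. At an unadjusted p under 0.05, 1 blood and endothelial gene was higher in the knockdown line, and no gene of the other 3 lists passed in either line.

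The knockdown line and the overexpression line on day 4 were set side by side next, and no member passed the test. Differences, knockdown minus overexpression line with the dox effects fitted, ran from -0.23 ± 0.18 (Prdm1) to 0.46 ± 0.38 (Dazl), and no member had an unadjusted p under 0.05, against 11.6% of all genes tested. No member had all 6 knockdown-line arrays above or below both day 4 arrays of the overexpression line, where 8.41% and 8.11% of all genes did. The overexpression line has 1 pair on day 4, and its spread is taken from the other groups.

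Across the 12 arrays the members fell into patterns rather than moving as a set. Prdm1 and Kit ran together (Pearson r = 0.941, Spearman rho 0.93), and each ran against Ddx4 (r = -0.752 and -0.751). Dazl and Ddx4 had r = 0.766 and rho 0.58. Nanos3 and Dnd1, the 2 survival factors, had r = 0.715. These correlations are descriptions over 12 arrays that share lines, days and replicate numbers, and they carry no p.

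The genes most like a member over the 12 arrays, among the 15950 tested, included 1 gene of the later germline list, Mael. For Ddx4 Mael was the nearest (r = 0.969), a gene that encodes a protein of the germ granule that takes part in transposon silencing, ahead of Urb2 (0.966) and Fancl (0.964). Mael was at 7.20, 7.84 and 7.88 in knockdown dox arrays, against 7.45, 8.46 and 7.29 in controls, and at 5.29 and 6.01 on day 5 and 7.07 on day 4 with overexpression, against 5.26 and 6.74 on day 5 and 6.58 on day 4 without. Like Ddx4 it is lowest in the day 5 replicate 1 arrays. All its day 5 values lie below 7.06, the receptor genes' 95th percentile, so they cannot be told from background. Dazl was most like Ranbp17 (0.977), Adam23 (0.966) and Med13l (0.964). Kit was most like Tkfc (0.978), Timp2 (0.971) and Cpm (0.966), and Prdm1 like Tmeff1 (0.943), Kit (0.941) and Gtf2a1 (0.94).

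For Prdm14 the nearest genes were Pck2 (r = 0.952), Herpud1 (0.948) and Neo1 (0.935), and for Tfap2c the related factor Tfap2b (0.846), Pygo1 (0.839) and Repin1 (0.833). Dnd1 was nearest to Map1s (0.93), Fbxw2 (0.917) and Ltb (0.916), and Nanos3 to Gm11691 (0.923), Wnt16 (0.918) and Zfp930 (0.906). Dppa3 had the weakest likenesses, to Gdf2 (0.816), Ccna1 (0.788) and Prkca (0.787).

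**Figure D4:**
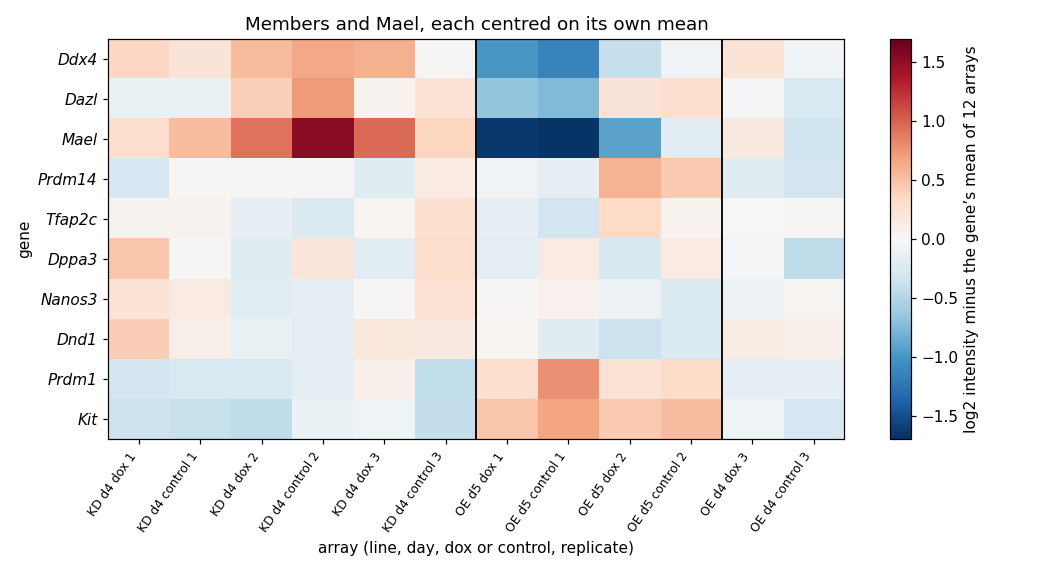
Level of the 9 regulators and Mael in each of the 12 arrays after subtracting the gene's mean over all arrays (log2, colour scale), with arrays in columns by line, day and replicate and genes in rows. Kit and Prdm1 are above their means in the 4 day 5 arrays and Ddx4 and Mael below theirs, with the lowest values of Ddx4, Mael and Dazl in the day 5 replicate 1 arrays.

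Genes around the members in the same pathway also showed no called change with dox. Of the BMP and WNT signals and their effectors that start germ cell formation, 19 genes were tested and 0 passed an unadjusted p under 0.05 in either line, with medians of 0.12 in the knockdown line and 0.02 in the overexpression line, against 0.01 and 0.01 over all genes. The largest dox differences there belonged to Id3, a BMP target (0.56 ± 0.30 in the knockdown line), and Msx1, a homeobox gene (0.55 ± 0.37). By day, 5 of the 19 were higher and 0 lower at an unadjusted p under 0.05, against 1199 higher and 1065 lower of all 15950 genes tested. At the adjusted threshold 89 of all genes (0.558%) were called by day. Bmp2, a ligand named here after its value was seen, rose by 1.05 ± 0.19 on day 5 with a limma adjusted p of 0.0433. On day 4 the list ran lower in the knockdown line than in the overexpression line (median -0.41). Bmp2 (-1.69 ± 0.22), Msx2 (-1.91 ± 0.31) and Smad1 (-0.83 ± 0.14, also named after its value was seen) were called lower, at limma adjusted p-values of 0.0176 to 0.0456. Of all 15950 genes tested, 49 (0.307%) were called between lines, and 43 of those were lower in the knockdown line. Every call by day in this and the next lists is lost without the day 5 control replicate 1 or either day 4 array of the overexpression line, each of which leaves 0 genes called, as does a random replicate block; every call between lines is lost without either of those day 4 arrays.

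Of 29 other genes of early germ cells, 0 were higher and 2 lower at an unadjusted p under 0.05 with dox in the knockdown line (median -0.04), and 0 in the overexpression line (median 0.05); 0 were called. Zfp42 (Rex1), a naive pluripotency gene, had the largest dox difference of the list, -0.80 ± 0.23 in the knockdown line (adjusted p = 0.965) and 0.31 ± 0.23 in the overexpression line. By day 1 rose and 1 fell: Ifitm1, a surface protein of nascent germ cells, by 1.11 ± 0.11 (adjusted p = 0.0115), and Pou5f1 (Oct4), at -0.59 ± 0.10 (adjusted p = 0.0383). Between lines on day 4, Kitl, the ligand of Kit, was lower in the knockdown line by 1.02 on the log2 scale (adjusted p = 0.0433), and Cxcr4, the chemokine receptor that guides germ cell migration, was at -2.39 ± 0.23 (adjusted p = 0.00566). Ifitm1, Pou5f1, Kitl and Cxcr4 were picked after their values were seen. Kitl and Cxcr4 ran as most calls between lines did, since 43 of the 49 over all genes were lower in the knockdown line.

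Later germ cell genes were dim: of 44 measured, 13 lay below the filter, among them the synaptonemal complex genes Sycp1 and Sycp2. Of the 31 tested, 0 were called in either line. At an unadjusted p under 0.05, 0 were higher and 3 lower with dox in the knockdown line (median -0.09), and 0 higher and 1 lower in the overexpression line (median 0.02). The knockdown median was 0.09 without control replicate 2 and 0.04 without dox replicate 1. Each omission leaves an array without its same-numbered partner, so the gap between replicates enters the median. Stra8, which encodes the gatekeeper of meiosis, had the largest difference, -1.01 ± 0.42 in the knockdown line (adjusted p = 0.965). On day 4, 27 of the 31 were higher in the knockdown line than in the overexpression line, as were 8471 of all 15950 genes tested. The list's median there was 0.32, against 0.02 over all genes, with 0 called.

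The list's mean level over its 44 genes varied between replicates as Dazl and Ddx4 did, being 6.64 and 6.998 in day 5 dox replicates 1 and 2, against 6.57 and 7.06 in their controls. The naive pluripotency genes did likewise, at 9.19 and 10.11 with dox, against 9.01 and 9.86 without. Knockdown arrays 1 and 2 had naive means of 9.27 and 9.99 with dox, against 9.90 and 10.29 without. Replicate 2 is thus the higher one in each of these groups, for the naive genes as for Dazl, Ddx4 and Mael. Of all genes tested, 34.5% had both day 5 replicate 1 arrays below both replicate 2 arrays, and 32.4% had them above, so a split by replicate is common on these arrays. Of the members, 4 split in the first way (Prdm14, Tfap2c, Dazl and Ddx4) and 2 in the other (Nanos3 and Dnd1).

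Of 18 naive pluripotency genes, 17 were lower with dox in the knockdown line (median -0.34; 2 at an unadjusted p under 0.05, 0 called) and 17 were higher with dox in the overexpression line (median 0.18; 0 at an unadjusted p under 0.05, 0 called). Over all 15950 genes tested, 7552 were lower with dox in the knockdown line and 9042 higher with dox in the overexpression line, and the medians were 0.01 and 0.01. Genes of the list are read on the same arrays, so their directions are not independent of each other. In the overexpression line the list's median was -0.11 without day 5 control replicate 1 and -0.12 without day 5 dox replicate 2, and in the knockdown line it was -0.12 without control replicate 2 and -0.17 without dox replicate 1. Each omission leaves an array without its same-numbered partner, so the gap between replicates enters the median. The list's mean levels in overexpression replicates 1, 2 and 3 were 9.19, 10.11 and 9.29 with dox, against 9.01, 9.86 and 9.21 without. Knockdown replicates had 9.27, 9.99 and 9.54 with dox, against 9.90, 10.29 and 9.69 without. Of the members, Prdm14 and Dppa3 are also naive ES cell genes. Prdm14 had the same signs as this list in both lines. Dppa3 was negative in both by its brighter probe set and positive in both by its dimmer one. Primed epiblast genes, 14 tested, had a median of 0.23 with dox in the knockdown line and 0.03 in the overexpression line, with 0 called.

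Of 18 repressors that keep germline genes silent in ES cells, 0 were called with dox, and 0 in the knockdown line and 1 (lower) in the overexpression line had an unadjusted p under 0.05; the medians were 0.07 and 0.03. By day the DNA methyltransferases Dnmt3b (-1.22 ± 0.22) and Dnmt3a (-0.66 ± 0.12), also in the epiblast list and named after their values were seen, fell on day 5, each with an adjusted p of 0.0457, and the list's median was -0.15.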

How the data were processed

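Expression was measured in 12 embryoid body samples on Affymetrix whole-transcript mouse gene arrays, from 1 µg of total RNA each, per the labels' protocols. The authors deposited 1 linear intensity per probe set and array, for 35512 probe sets. The summarisation and normalization method is not given in the sources used here. Across arrays, means were 677.3 to 696.6 and medians 145.3 to 182.2.

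Intensities were taken as log2(intensity + 1) and quantile normalized, since array medians spanned 0.324 on that scale, over the limit of 0.1. Of the probe sets, 21789 were annotated to 1 gene, 1621 to several and 12102 to none. The brightest probe set stood for each of the 999 genes with more than 1. Genes below the 20th percentile (log2 level 6.46) were not tested. One model over all 12 arrays, with a baseline per line and day, a dox effect per line and no replicate block, was fitted with limma 3.58.1 in R 4.3.3 (7 residual and 3.5 prior degrees of freedom). Calls are a Benjamini-Hochberg adjusted p under 0.05 over 15950 genes. Intervals are 95% intervals of the model. The number of arrays limits the precision.

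Named genes are the members, Gmnn, the 3 genes most like each member, and up to 4 genes of a list with the largest dox difference; others are said to be chosen after their values were seen. The members, the 6 pathway lists and the 4 marker lists were chosen with earlier results of these data known. Of the lists' genes, T, Rhox5, Fkbp6, Mageb16, Tdh, Spp1, Gcm1, Prl3d1 and Fbn1 are not analysed here. On simulated arrays of 15950 genes, the model recovered 25, 44, 50 and 50 of 50 genes changed 1.5, 2, 4 and 8-fold in the knockdown line (16 unchanged genes called), and 22, 42, 47 and 50 in the overexpression line (7 called). The genes of all these sizes were changed together, on noise drawn independently for each array. Such recovery need not carry over to a contrast in which few genes change or arrays share deviations. In the data, Gmnn was 1.41-fold lower in the knockdown line and 1.76-fold higher in the overexpression line. Its limma adjusted p-values were 0.965 and 0.922. The alternatives were median centring, another pseudocount, no filter, a replicate block, array weights, each line alone, day 5 alone, other probe sets and each array left out.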

Additional observations from a re-analysis of the deposited data

Results flagged for a closer look

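Prdm14 is listed because its pairs ran opposite ways in the lines. In the knockdown line every pair was at or below its control, by 0.30, under 0.01 and 0.35. In the overexpression line every pair was above it, by 0.09, 0.14 and 0.11. The share of all genes with such an arrangement was not counted. Fitted dox differences of Prdm1, Tfap2c, Dazl and Kit also had opposite signs in the lines. The dox effect in the knockdown line minus that in the overexpression line was -0.33 ± 0.26 (log2 ± SE). Its unadjusted p was 0.232 and its adjusted p 1.0 in limma, so the difference itself was tested and not called. That fit has no replicate block, so the SE holds the spread between replicates besides that of the dox effect. With a replicate block the difference was not called either, and its unadjusted p in that fit is not given here. The mean level of Prdm14 was 6.88, below the 95th percentile of the olfactory and vomeronasal receptor genes (7.06).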

How the results depend on the processing

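No member was called for dox, or for the difference between lines, under any alternative run. For day 5 against day 4, a pseudocount of 16 called 1 member (Kit, 0.69, adjusted p = 0.0492), leaving out the day 5 replicate 1 pair called 1 (Prdm14), array weights called 4, and leaving out single arrays called 0 to 1. Over all genes, the knockdown dox count of 1 was 0 with that line alone and 1 to 1 without single arrays. The overexpression dox count of 1 was 201 with array weights, 0 with that line alone, with day 5 only and without either day 5 pair, and 0 to 1 without single arrays. The difference between lines stayed at 0. The day count of 89 was 33 with median centring, 27 with no filter, 0 with a random replicate block, 2567 with array weights, 350 without the replicate 1 pair, 3 without the replicate 2 pair and 0 to 148 without single arrays. The count of 49 between lines was 29 with no filter, 25 with a replicate block, 1170 with array weights and 0 to 80 without single arrays. The causes were not tested; array weights estimate a weight per array from groups of 1 to 3. Leaving out day 5 pairs and the other Dppa3 probe set were chosen after seeing the data.

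Same-numbered arrays deviated together in knockdown replicates 1 and 2, with r = 0.602 and 0.438. Replicate 3 hardly did: its r of 0.051 was close to 0.024 (dox 1 with control 3) and 0.021 (dox 3 with control 2). On day 5 in the overexpression line r was 0.785, a single value, since with 2 replicates a group both pairs must give the same r. The labels give no shared culture, so the numbers were not taken as pairs. A replicate block called 1, 1 and 0 genes for dox in the knockdown line, in the overexpression line and for their difference, as without it, with 1941, 572 and 1384 genes at an unadjusted p under 0.05.

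Small member differences changed sign under some settings. Leaving out a single array leaves its same-numbered partner alone, so the gap between replicates enters the difference. Median centring gave Tfap2c 0.035 for knockdown dox and 0.042 for day. Array weights gave Dppa3 0.255 and Kit 0.147 for overexpression dox, and Tfap2c 0.024 and Dazl 0.04 for day. Day 5 alone gave Nanos3 0.042 and Ddx4 -0.091 for overexpression dox. Without the replicate 1 pair, Dnd1 was -0.047, Ddx4 -0.027 and Kit 0.062 for overexpression dox, and Tfap2c 0.185 and Dazl 0.397 for day. Without the replicate 2 pair, Dppa3 was 0.057 and Kit 0.009 for overexpression dox, and Nanos3 0.071 for day. The other Dppa3 probe set gave 0.072, 0.036 and -0.026 for knockdown dox, overexpression dox and day. Without single arrays, knockdown dox differences ranged from -0.013 to 0.188 for Prdm1, -0.182 to 0.074 for Tfap2c, -0.164 to 0.054 for Nanos3, -0.005 to 0.267 for Dnd1, -0.367 to 0.059 for Dazl and -0.091 to 0.11 for Kit. Overexpression dox differences ranged from -0.074 to 0.301 for Prdm14, -0.012 to 0.26 for Tfap2c, -0.119 to 0.051 for Nanos3, -0.067 to 0.17 for Dnd1, -0.349 to 0.006 for Dppa3, -0.191 to 0.4 for Dazl, -0.241 to 0.373 for Ddx4 and -0.144 to 0.048 for Kit. Day differences ranged from -0.159 to 0.101 for Tfap2c, -0.125 to 0.053 for Nanos3, -0.185 to 0.569 for Dppa3 and -0.324 to 0.123 for Dazl, and held their sign for Kit (0.523 to 0.883), Prdm1 (0.416 to 0.695), Prdm14 (0.319 to 0.601) and Ddx4 (-0.987 to -0.527). Without the replicate 1 or the replicate 2 pair of day 5, the day difference was 0.777 or 0.145 for Prdm14, -0.312 or -1.149 for Ddx4, 0.43 or 0.681 for Prdm1 and 0.663 or 0.744 for Kit.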
